A study of Drosophila melanogaster with 6 samples.

Results

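The genes described here are 10 voltage-gated sodium and potassium channel genes of Drosophila melanogaster, chosen by RefSeq gene name from the 16959 genes that the deposited tables cover: para, Sh, Shab, Shal, Shaw, slo, eag, sei, Elk and KCNQ. All 10 were found, with 137 transcripts, and each gene is represented below by its transcript of highest base mean, the authors' mean of size-factor normalized read counts over libraries. The study measured mRNA in the central nervous system of third-instar larvae (84 h AEL, reared at 25 °C, 15 central nervous systems a sample) and asked which genes dSET2, the gene Set2, regulates there. Set2 encodes a histone methyltransferase of lysine 36 on histone H3. The labels give 3 control samples of genotype dSET2 RNAi/+; Canton S and 3 knockdown samples of genotype dSET2 RNAi/+; elavC155GAL4, so both groups carried the RNAi transgene and the knockdown alone the GAL4 driver. The elav-C155 driver expresses GAL4 mainly in neurons, while the RNA came from the whole tissue, and no group carried the driver without the RNAi transgene.

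Voltage-gated channels set how a neuron fires. The sodium channel opens on depolarization and carries the upstroke of the action potential, and the potassium channels open with different delays and voltages to repolarize the membrane, space the spikes and hold the resting level. Many were first cloned in Drosophila from mutants that shake or become paralysed. The fly genes are also spliced and polyadenylated in many ways, so that a single locus can yield many messages.

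The tables hold no values per labelled sample, but the reads behind them could be recovered. The lowest base means were whole-number sums of the value of 1 read in each of 4 libraries, here called A, B, C and D, with size factors of 1.48, 1.11, 0.902 and 0.701. The mean log2 CPM that edgeR reports gave a second equation for each transcript, and 4 effective library sizes (14197624, 10613374, 8405437 and 6974243 reads) with 1 dispersion fitted it for 9921 transcripts to within 5.979e-10. A set of reads was accepted if it met both equations and if libraries A, C and D against B gave the log2 fold change of the authors' deposited table from edgeR to within 0.05. All 11678 transcripts tried, every detected channel transcript included, had exactly 1 such set. Over those at a base mean of 10 or more, the median fold change difference was 0.000407, a closeness that the acceptance limit in part imposes. A positive fold change therefore means a higher level in A, C and D than in B. Which side is the knockdown is not given in the sources used here, and the 6 labelled samples cannot be matched to the 4 libraries, so values are given by library, and B has no replicate. The RNAi target Set2 (NM_132660) had 10, 36, 21 and 0 reads in A, B, C and D, and the authors' deposited table from edgeR lists a log2 fold change of -1.65 (p = 0.0388, FDR = 1, where FDR is the false discovery rate over all transcripts).

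Few of the channel transcripts had any reads. Of the 137 channel transcripts, 111 (81%) had a base mean of 0 by the authors' deposited table, against 55% of all 34115 transcripts. For para, 58 of 60 transcripts stood at 0, and for slo 21 of 23. Among all genes, those with 10 or more transcripts had 80.1% of them at 0 and those with 1 transcript 22.2%. Of the genes with 10 or more transcripts and a base mean of 10 or more, para, Sh, Shab and slo had 93 of 108 transcripts (86.1%) at 0, beside 73.6% over all 116 such genes.

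In the Ensembl annotation BDGP6.54, transcripts were compared for private bases, the exonic bases that belong to 1 transcript of the gene and no other. That annotation is newer than the dm3 build named in the submitters' processing notes. This check was chosen after the values had been seen. It covered 2303 genes with 2 or more transcripts, a base mean of 10 or more and the same number of transcripts in both sources. In all of them, no more transcripts stood above 0 than have a private base, and the 2 numbers were equal in 80.7% of them. None of the 10 channel genes had more transcripts above 0 than with a private base either, but the numbers were equal in only 4 of them, para, Shab, Shal and slo. In para 2 of the 60 transcripts have a private base, in slo 2 of the 23, in Shab 4 of the 10 and in Shal 2 of the 3. The other 6 genes had 1 transcript fewer above 0 than with a private base. For Sh the 2 numbers come from unlike sets: 8 of 17 Ensembl transcripts have a private base, and 7 of 15 in the tables were above 0. The private bases of Sh and its value per kilobase below rest on the 17.

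**Figure D1:**
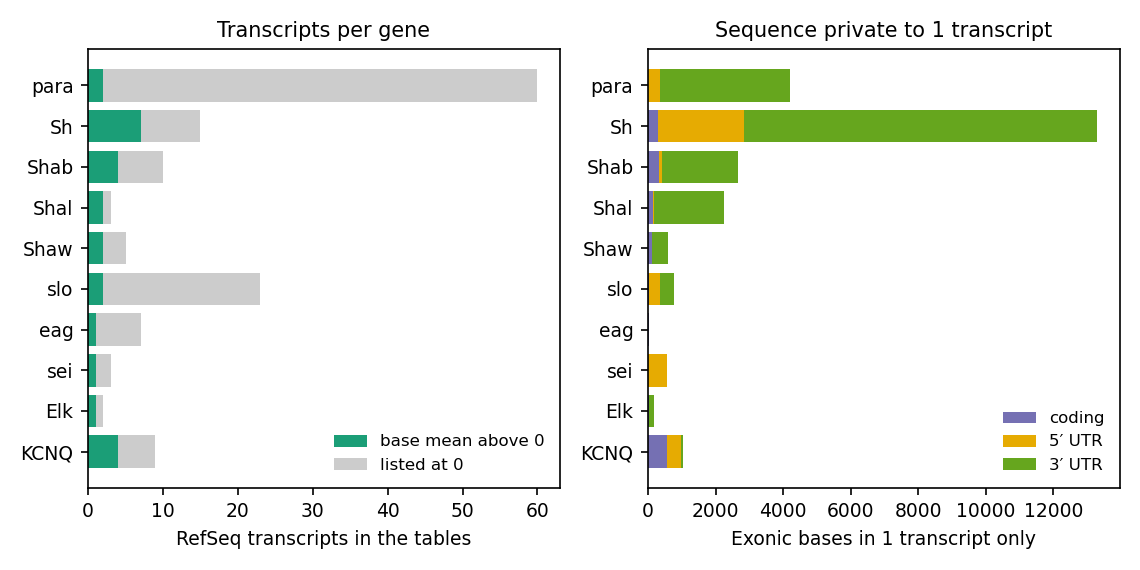
Left, RefSeq transcripts of each channel gene in the tables (horizontal axis), split into those with a base mean above 0 and those listed at 0. Right, exonic bases that belong to 1 transcript only in the annotation BDGP6.54, split by coding sequence, 5′ UTR and 3′ UTR; para has 58 of 60 transcripts at 0, and most private bases of para, Sh, Shab and Shal lie in 3′ UTRs.

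Most private bases of the well-covered channel genes are untranslated. In para 3840 of 4210 private bases are 3′ UTR of a single transcript and the others are 5′ UTR, with none in coding sequence. In Sh 10465 of 13301 private bases are 3′ UTR, in Shab 2251 of 2675 and in Shal 2079 of 2249. In slo 339 of 769 private bases are 5′ UTR and 406 are 3′ UTR. In KCNQ 569 of 1051 private bases are coding, and in eag all 24 are. How reads that fit several transcripts were treated is not given in the sources used here. If they were left out, which the numbers above do not test directly, the values below describe messages with a given UTR more than the coding sequence that isoforms share.

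The 3 genes of the eag family, eag, sei and Elk, had too few reads to be followed. The gene eag, whose mutants shake their legs under ether, has 24 private bases and had 1 read in library D and 0 in A, B and C, which allows up to 2.03, 2.70 and 3.33 normalized reads in those 3 libraries. Elk, which encodes an eag-like channel, has 182 private bases and had 2 reads, both in B. For sei, the fly ERG channel gene, named for the seizures of its mutants, 562 private bases held 1, 7, 4 and 4 reads in A, B, C and D. Of its exonic bases, 478 also lie in exons of gammaSnap1 or ppk29. No difference between libraries could be detected at this depth, and the deposited fold changes of eag and Elk rest on 1 and 2 reads.

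Levels per length are given on the assumption that reads shared by transcripts were left out. The authors' summed base mean per kilobase of private bases was 535 for para, 217 for Shal, 154 for slo, 114 for Sh, 98.1 for Shaw, 46.1 for Shab, 36.6 for KCNQ, 14.9 for eag, 7.61 for sei and 2.47 for Elk. These levels mix isoforms and libraries and carry no error from replicates. In each library para was the highest and Shal the next, but the order below them changed. In A, B, C and D the normalized counts per kilobase were 88.6, 65.8, 179 and 59.2 for Shaw and 109, 56.2, 150 and 300.3 for slo, so that Shaw was above slo in B and C and below it in A and D. The value for eag rests on 1 read. The divisor was the plain number of private bases, with no correction for read length. Genes with few private bases, such as eag (24) and Elk (182), therefore cannot be ranked by these values.

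The sodium channel gene para, on the X chromosome, had the most reads of the members. Its transcript NM_001298403 held 2381, 1516, 2813 and 2036 reads in A, B, C and D, which are normalized counts of 1608 (95% interval 1544 to 1674), 1366 (1298 to 1436), 3118 (3004 to 3236) and 2903 (2778 to 3031). Libraries C and D stood at 2.28 and 2.13 times the level of B, and A at 1.18 times. The counting intervals of all 4 libraries were separate except those of C and D, so most of the contrast lay between A and B on one hand and C and D on the other. The authors' deposited table from edgeR lists a log2 fold change of 0.89 (p = 0.0336, FDR = 1). The authors' deposited table from DESeq2 gave 0.77 ± 0.45 (standard error) with an adjusted p-value of 0.9999. The other detected para transcript, NM_001201703, had 7, 2, 5 and 3 reads. Fewer neurons in a sample and less channel RNA per neuron cannot be told apart in such bulk RNA.

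Shaker, written Sh and also X-linked, encodes the channel of a fast, inactivating A-type potassium current. Of its 15 transcripts in the tables, 7 were above 0, and 2 of them carried nearly all reads. Transcript NM_078669 had normalized counts of 506, 383, 919 and 1158 in that order of libraries, with the lowest value in B and the highest, 3.02 times as high, in D. Transcript NM_167594 had 515, 348, 809 and 1121, the same order. By the authors' deposited table from edgeR, their log2 fold changes were 1.16 (p = 0.0251) and 1.21 (p = 0.0212), both with FDR = 1. The authors' deposited table from DESeq2 gave 0.99 ± 0.472 and 1.04 ± 0.467, with adjusted p-values of 0.692 and 0.546.

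A further Sh transcript had another order of libraries. NM_001272737 had normalized counts of 31.7 (23.3 to 42.2), 70.3 (55.5 to 87.7), 112 (91.2 to 136) and 42.8 (28.9 to 61.1) in A, B, C and D, so that A and D were the low libraries and B lay between D and C. Its log2 fold change, by the authors' deposited table from edgeR, was -0.17 (p = 0.803, FDR = 1). Library D thus held the highest level of the 2 abundant Sh transcripts and the second lowest of NM_001272737. The difference between the transcripts was not tested.

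**Figure D2:**
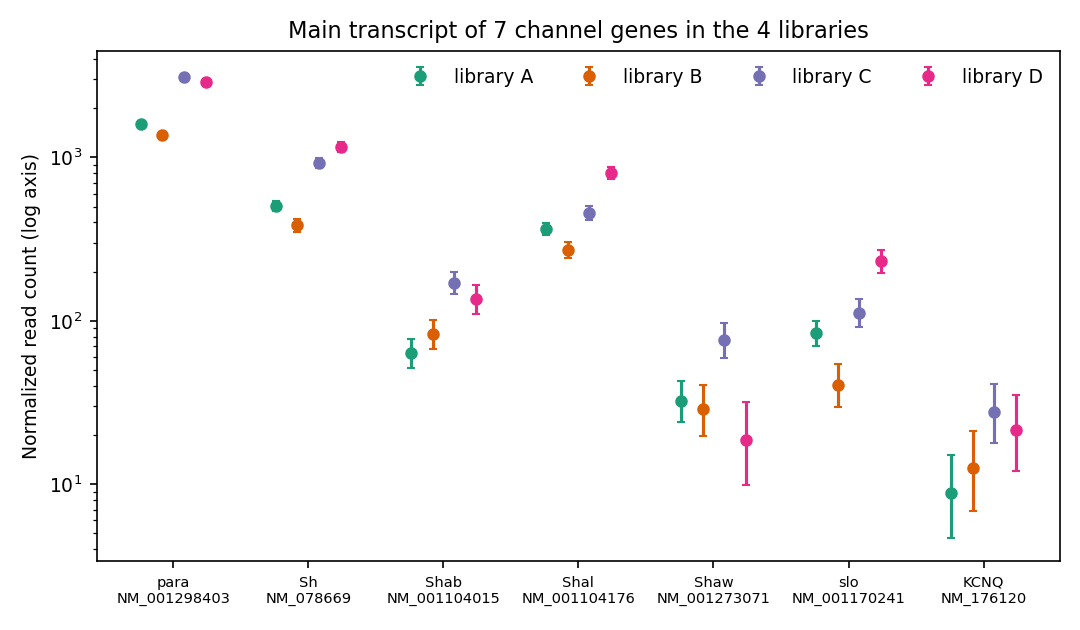
Normalized read counts (vertical log axis) of the main transcript of the 7 channel genes at a base mean of 10 or more, in libraries A to D; bars are exact Poisson 95% intervals and cover counting error only. Library B is the lowest point for para, Sh, Shal and slo, and A is below both C and D for every gene but Shaw.

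Shal encodes the main A-type channel of neuronal cell bodies and dendrites. Its transcript NM_001104176 had normalized counts of 365 (335 to 397), 272 (242 to 305), 458 (415 to 504) and 798 (734 to 867) in A, B, C and D. Library B was the lowest and D stood apart from A and C, which were at 1.34 and 1.68 times the level of B against 2.93 for D. The authors' deposited table from edgeR gave a log2 fold change of 0.97 (p = 0.0908, FDR = 1), and the authors' deposited table from DESeq2 gave 0.83 ± 0.477. A second Shal transcript, NM_079435, had 14.9, 17.1, 17.7 and 7.13 normalized reads with overlapping intervals and, by the authors' deposited table from edgeR, a log2 fold change of -0.34 (p = 0.689, FDR = 1).

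The gene slo encodes the pore of the large-conductance channel that calcium and voltage open together, and it had the largest fold change of the well-counted members. Its transcript NM_001170241 held 124, 45, 101 and 162 reads, which are normalized counts of 83.7 (69.7 to 99.8), 40.5 (29.6 to 54.2), 112 (91.2 to 136) and 231 (197 to 269). Libraries A, C and D were at 2.07, 2.76 and 5.70 times the level of B, so the 3 were themselves spread. The authors' deposited table from edgeR lists a log2 fold change of 1.78 (p = 0.0177, FDR = 0.941). The authors' deposited table from DESeq2 gave 1.38 ± 0.545 with an adjusted p-value of 0.319. Without library D, the log2 ratio of the normalized reads of A and C to those of B was 1.22.

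Shab encodes a delayed rectifier, which opens slowly and keeps conducting through a long depolarization. Its transcript NM_001104015 had normalized counts of 63.5 (51.3 to 77.7), 82.9 (66.8 to 102), 171 (145 to 200) and 135 (110 to 166) in A, B, C and D. Here A and not B was the lowest library, and their intervals overlapped. The authors' deposited table from edgeR lists a log2 fold change of 0.56 (p = 0.414, FDR = 1). On the reads it was 0.06 without library C and 0.91 without library A.

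Shaw encodes a channel that opens with little voltage dependence and acts near rest. Both of its detected transcripts were highest in C and next in A. The order of B and D differed between them, but the intervals of B and D overlapped in each. NM_001273071 had 32.4, 28.8, 76.5 and 18.5 normalized reads in A, B, C and D, with C high and the intervals of the other 3 overlapping, and NM_057373 had 20.9, 10.8, 31.0 and 17.1. By the authors' deposited table from edgeR, their log2 fold changes were 0.57 (p = 0.458) and 1.09 (p = 0.225), both with FDR = 1. Without library C the read ratio of NM_001273071 turned to -0.04. KCNQ, which encodes a slow channel of the M-current kind, had 8.78, 12.6, 27.7 and 21.4 normalized reads of NM_176120, again with A lowest. Its log2 fold change, by the authors' deposited table from edgeR, was 0.58 (p = 0.513, FDR = 1), and on the reads it was 0.02 without library C. That transcript holds 45.8% of the gene's base mean, and NM_001144160 had 7.43, 13.5, 26.6 and 15.7 normalized reads, with A again the lowest and C the highest. The authors' deposited table from edgeR gives it a log2 fold change of 0.27 (FDR = 1). Of the exonic bases of KCNQ, 1063 also lie in exons of CG18011 or asRNA:CR45133, whose reads cannot be told apart from those of KCNQ unless counting was by strand.

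**Figure D3:**
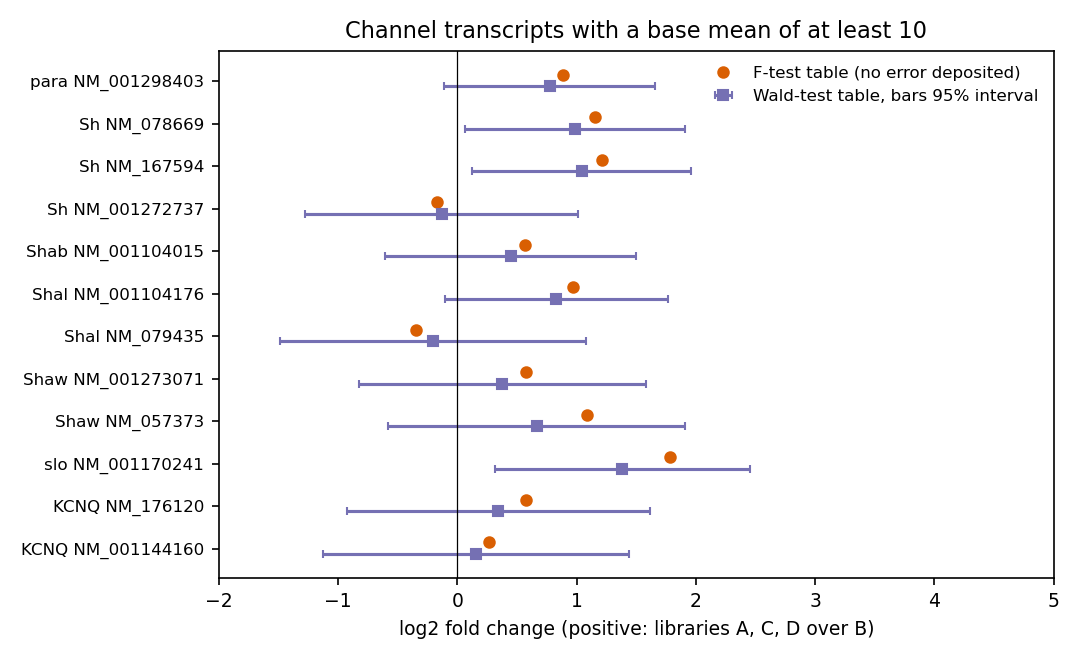
log2 fold change (horizontal axis, positive for libraries A, C and D over B) of the 12 channel transcripts at a base mean of 10 or more; circles are the authors' F-test table from edgeR and squares their Wald-test table from DESeq2, with 95% intervals from its standard errors. Of the 12 transcripts, those of slo and the 2 abundant ones of Sh have intervals that exclude 0, and none passed the threshold after adjustment over all transcripts.

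By the authors' deposited table from edgeR, no channel transcript passed an FDR of 0.05, where 0.868% of all 34115 transcripts did. No channel transcript passed in the authors' deposited table from DESeq2 either, where 2.26% of the 9221 transcripts with an adjusted p-value did. The 0.868% includes the 55% of transcripts at 0, which cannot pass, and 81% of the channel transcripts were at 0. Among the 6596 genes at a base mean of 10 or more, 26 passed as positive and 211 as negative. Calls were thus rare, and their absence among 7 channel genes says little about these genes. Before adjustment, 4 of the 12 channel transcripts at a base mean of 10 or more had p under 0.05 by the authors' deposited table from edgeR. They were 1 of para, 2 of Sh and 1 of slo, beside 8.77% of all 7180 transcripts at that base mean. By the authors' deposited table from DESeq2, 3 of the 12 did. The share over all transcripts was not worked out for that table, so no excess can be read from this count. By gene, 3 of the 7 channel genes at a base mean of 10 or more had p under 0.05, beside 9.17% of 6596 genes, and all 3 were positive, beside 2.97%.

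All 7 channel genes at a base mean of 10 or more had, by the authors' deposited table from edgeR, a positive fold change, beside 51.6% of the 6596 genes. Their median was 0.89, within a range of 0.56 to 1.78, and the median of all those genes was 0.01. All 7 were above 0.5 log2 units, where 20.5% of genes lay. Only 4 of the 7 (para, Sh, Shal and slo) were so by the authors' deposited table from DESeq2, beside 14.9% of genes, and 6 of the 7 were when the edgeR values were averaged over transcripts. The 3 genes that missed the filter are eag, sei and Elk, and the fold changes of the last 2 were negative.

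**Figure D4:**
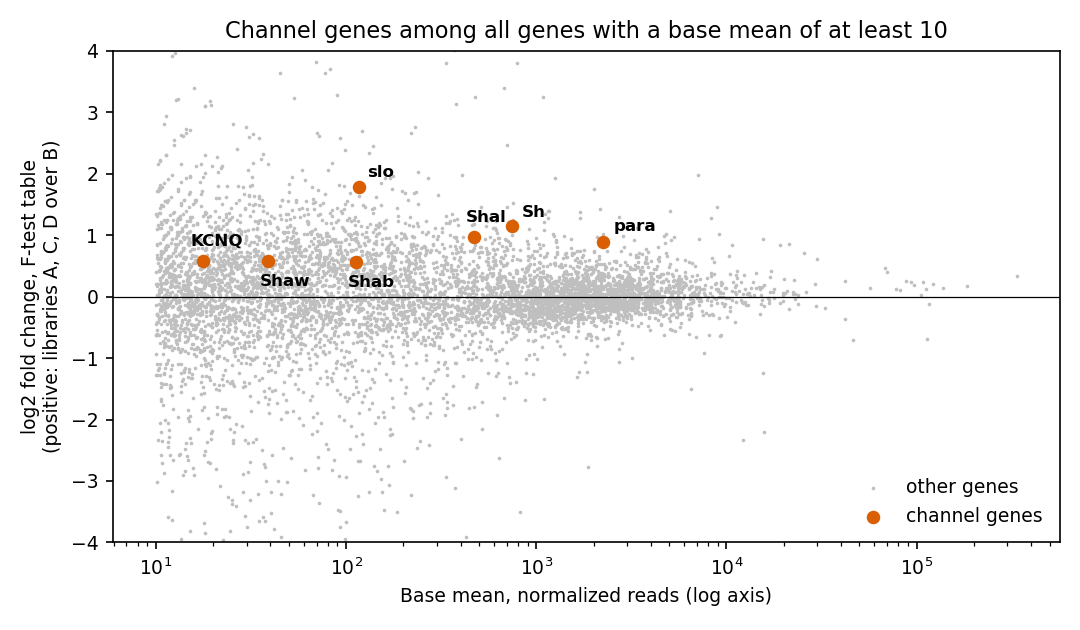
log2 fold change in the F-test table from edgeR (vertical axis, positive for libraries A, C and D over B) against base mean (horizontal log axis) for genes at a base mean of 10 or more, with 7 channel genes in orange; 150 genes lie beyond the vertical axis. The channel genes are all above 0.5, and para, Sh and Shal lie near the upper edge of the genes at their base mean.

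Each gene was also set beside genes of like base mean. Of 1483 genes whose base mean was within 2-fold of that of para, 1.28% had a fold change at least as high. The corresponding shares were 2.09% for Sh, 5.06% for Shal and 2.05% for slo, and 25.8% for Shab, 26.7% for Shaw and 27.1% for KCNQ. The 4 genes para, Sh, Shal and slo were thus near the top of genes of like depth, and the other 3 were not.

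The order of the libraries was examined after these values had been seen. Library B was the lowest of the 4 for 4 of the 7 genes, beside 26.1% of 5714 genes with a base mean of 10 to 2500. That share covers genes of either sign, while all 7 channel genes were positive. A gene with B lowest is positive almost by definition, so this count is no result apart from the fold changes. Library A was below both C and D for 6 of the 7, beside 25.5% of genes. In none of the 7 was A the highest library, but it was so in only 16.6% of genes. Summed over the 7 main transcripts, normalized counts in A, B, C and D were 2667, 2185, 4882 and 5265. The summed level in A was thus nearer to B than to C and D, although A lies on their side of the authors' comparison. That sum is mostly para, which gave 1608 of the 2667 in A, and it did not hold for every gene. For slo, A (83.7) was nearer to C (112) than to B (40.5), and for Shal, A (365) lay about midway between B (272) and C (458).

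Neuronal markers also had positive fold changes, none past the threshold. Of the 12 markers, 10 were at a base mean of 10 or more, and all 10 had positive fold changes, with a median of 0.50 and a range of 0.15 to 1.20 by the authors' deposited table from edgeR. Their summed normalized counts were 3438, 3128, 3986 and 6089 in A, B, C and D, so B was again the lowest and A the next. None of the 12 was at 0. The part of this in the channel values was not tested.

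Markers of other tissues stood high in library B. Of the 7 salivary gland markers, the 6 at a base mean of 10 or more summed to 1330 normalized reads in B against 27.7, 41.0 and 29.9 in A, C and D, and none of the 7 was at 0. By sign, 5 of the 6 were negative and Sgs1 was positive, at 0.72 log2 units by the authors' deposited table from edgeR (FDR = 1). Of the 6, 4 passed the threshold as negative in that table, where 211 of the 6596 genes at a base mean of 10 or more did. Of the 9 muscle markers, all 5 at a base mean of 10 or more were negative and none passed the threshold. The 3 of them with recovered reads summed to 104 in B and to between 24.4 and 58.4 elsewhere. Of the 6 fat body markers, Fbp1 was at 0, and the 2 at a base mean of 10 or more were negative, neither past the threshold. The 1 gene of these with recovered reads, Lsp1alpha, had 21167 normalized reads in B and 589.6, 36.6 and 61.3 in A, C and D. The 4 glial markers with recovered reads summed to 5168, 5292, 5853 and 7044 in A, B, C and D, and the 6 neuroblast markers to 7009, 6206, 8821 and 7825. None of the glial, muscle or neuroblast markers was at 0. The part of other tissues in the channel values was not tested.

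Other genes of sodium and potassium transport were described from a list of 39 entries, which named 37 genes. Of these, 24 had a base mean of at least 10 and 5 were listed at 0 (Frq1, Ork1, Slip1, Task6 and Teh1). In the authors' deposited table from edgeR, 16 of the 24 were positive and 8 negative, with a median of 0.37 beside 0.01 for all genes. None of the 24 passed the threshold as positive, where 0.0791% of all transcripts did, and 1, galene, did as negative, where 0.789% did. Those 2 shares are no like background for the 24, because they include the 55% of transcripts at 0, which cannot pass. Among the 6596 genes at a base mean of 10 or more, 26 passed as positive and 211 as negative. Without library C the median over the reads turned to -0.08.

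**Figure D5:**
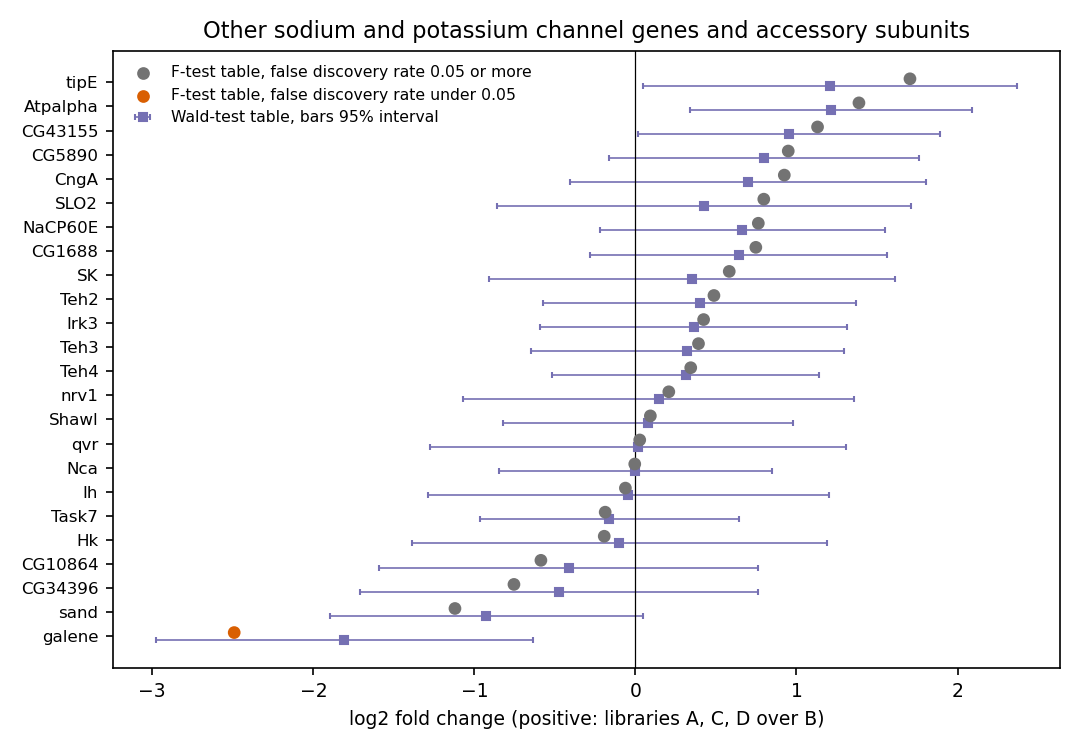
log2 fold change (horizontal axis, positive for libraries A, C and D over B) of the 24 other genes of sodium and potassium transport at a base mean of 10 or more. They include subunits of the sodium-potassium pump, such as Atpalpha, beside channel genes and accessory subunits. Circles are the F-test table from edgeR and squares the Wald-test table from DESeq2 with 95% intervals. galene is the only one of the 24 past an FDR of 0.05 in the F-test table, and tipE and Atpalpha lie at the positive end.

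The 3 highest fold changes of the 24 were those of tipE, Atpalpha and CG43155. The gene tipE encodes an auxiliary subunit that raises sodium currents through para, and it had 35.1, 18.0, 47.7 and 98.4 normalized reads in A, B, C and D, an order it shares with Sh, Shal and slo. By the authors' deposited table from edgeR, its log2 fold change was 1.70 (p = 0.0370, FDR = 1). Atpalpha, the catalytic subunit of the sodium-potassium pump that restores the ion gradients, had 4450, 2272, 5139 and 8452 normalized reads, with B lowest and D highest. Its log2 fold change, by the authors' deposited table from edgeR, was 1.39 (FDR = 0.0542, just outside the threshold), and the authors' deposited table from DESeq2 gave 1.21 ± 0.446 with an adjusted p-value of 0.214. Adjusted over transcripts at a base mean of 10 or more, the p-value of the authors' deposited table from edgeR became 0.0138. CG43155 had 139, 77.5, 191 and 182 normalized reads and, by the authors' deposited table from edgeR, a log2 fold change of 1.13 (p = 0.105, FDR = 1).

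The 3 lowest of the 24 were those of galene, sand and CG34396, and Irk1, under the filter, was past the threshold. The gene galene, which encodes a channel of the two-pore-domain class, had 17.6, 93.7, 8.87 and 24.2 normalized reads in A, B, C and D, with B far above the rest. By the authors' deposited table from edgeR, its log2 fold change was -2.49 (FDR = 0.0361), and that from DESeq2 gave -1.81 ± 0.597 with an adjusted p-value of 0.0975. The inward rectifier gene Irk1 had 1, 19, 0 and 1 reads. Its log2 fold change, by the authors' deposited table from edgeR, was -4.49 (FDR = 0.0119), and that from DESeq2 gave an adjusted p-value of 0.330. The two-pore-domain gene sand had 74.3, 162, 64.3 and 87.0 normalized reads and CG34396 had 18.9, 36.0, 9.98 and 37.1. By the authors' deposited table from edgeR, their log2 fold changes were -1.12 (p = 0.0785) and -0.75 (p = 0.321), both with FDR = 1. Library B held the high level of galene, Irk1 and sand and the low level of para, Sh, Shal and slo. Whether the galene and Irk1 reads in B came from the other tissues whose markers stood high there was not tested.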

How the data were processed

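RNA sequencing of larval central nervous systems gave 2 deposited tables of the authors' own comparison. The submitters' processing notes name HISAT2, featureCounts, DESeq2, edgeR and the build dm3, with no versions, and the treatment of reads shared by transcripts is not given in the sources used here. Per the file headers, the authors deposited a base mean, a signal made of read counts divided by size factors and averaged over libraries, with log2 fold changes and their standard errors, a mean log2 CPM, the Wald and F statistics as test scores, and p-values unadjusted and adjusted. No differential test was rerun: the test planned on counts per sample could not be made, so the authors' edgeR table was the main source and their DESeq2 table an alternative. Columns with values for single samples that were left out numbered 0.

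Reads per library were recovered here from the base mean and the log2 CPM (prior count 2, dispersion 0.155, tolerance 1.000e-09), and were accepted if the log2 fold change they gave lay within 0.05 of the deposited one. The library sizes and dispersion were fitted on base means up to 30. Above that, reads of B were searched only near the deposited fold change, except for the members, which were searched in full. Every gene's top transcript was decoded up to a base mean of 2500, and transcripts of listed genes up to 6000. On simulated data, 99.92% of 10061 transcripts gave back their true reads, and 0 gave wrong ones. Intervals are exact Poisson with 95% coverage, and the limit for 0 reads is the normalized value of 3 reads in that library; both cover counting error only. The labels' design text calls the 3 samples a group biological replicates, but the 4 libraries cannot be matched to them. With 3 libraries on one side and 1 on the other, spread within a side could come only from A, C and D. The p-values therefore hold no measure of spread on the side of B. Of 34115 transcripts, 33994 matched a gene in the RefSeq gene table of Release 6 plus ISO1 MT and 121 did not. No coordinates are printed, because that build is not dm3.

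The members and lists were chosen with earlier results of these data known. The text names all 10 members, Set2 and, of the other list, the genes past the threshold and the 3 highest and 3 lowest fold changes with a base mean of at least 10. Alternatives were the authors' DESeq2 table, thresholds, filters on base mean, a mean over transcripts, and, chosen after seeing the data, leaving out library A, C or D. Python 3.11.15, NumPy 2.4.6, SciPy 1.17.1, pandas 2.3.3 and numba 0.67.0 were used.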

Additional observations from a re-analysis of the deposited data

How the results depend on the processing

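Of 77 combinations of a result with an alternative setting, 74 kept their direction and their side of the threshold (for single genes), moved by under 0.535 log2 units, the median DESeq2 standard error of the 7 genes (for medians), or stayed within 1.5 times (for counts). The 74 do not measure stability, because some were fixed in advance or repeat each other. With 0 transcripts past 0.05, the 0.01 threshold and calls in both tables had to give 0. The median of the 7 genes was the value of para itself in both tables, in the mean over transcripts and without library A, C or D. Single genes had no limit of size: in the DESeq2 table eag went from 1.93 to 0.06 and Elk from -4.01 to -0.24. Channel transcripts past the threshold numbered 0 in the edgeR and DESeq2 tables, at 0.01, with adjustment over base means of at least 10 (smallest value 0.274, for slo) and for calls in both tables, and 4 at an unadjusted p-value under 0.05. Without library C, the read ratio of Shaw turned to -0.0444 and the median of the other genes of sodium and potassium transport to -0.0765. The cause was not tested. The median of the channel genes was 0.77 in the DESeq2 table and ran from 0.57 without library C to 1.15 without library A. Without library C, 6 of the 7 genes stayed positive. Atpalpha had an adjusted p-value of 0.0138 when adjusted over base means of at least 10. No paired analysis was possible because the tables hold no values per labelled sample, and for the same reason fits with a replicate block and fits without a labelled replicate were not run. For eag, sei and Elk, depth sets the limit.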
